A study of Mus musculus with 16 samples.

Results

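This comparison set CD8 against CD4 naive T cells within the fraction that carried the most CD5. It rests on 8 of the 16 RNA-seq libraries of the series, chosen by their labels: CD8 CD5hi replicates 1 to 4 and CD4 CD5hi replicates 1 to 4. All cells came from lymph nodes of C57BL/6 mice, and were sorted as lacking CD25, with high CD62L and low CD44. Within each lineage the CD5hi group was the third of cells with the highest surface CD5. The 8 CD5lo libraries held the third with the lowest, and served to ask whether the lineage difference was the same at low CD5. They also entered the fit, so they share in the spread behind each SE and p-value at high CD5. The labels name no other genotype, agent or time point, and the ages of the mice were not used here. The labels call the 4 replicates of a group biological but do not say that each was a separate animal. The p-values therefore measure only the spread between libraries of the same group, taken over all 16.

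Mature αβ T cells leave the thymus as 1 of 2 lineages. CD4 T cells recognise peptides on MHC class II and become helper or regulatory cells, under the transcription factor ThPOK, encoded by Zbtb7b. CD8 T cells recognise peptides on MHC class I and become cytotoxic cells, under Runx3, which silences Cd4 and Zbtb7b. CD5 is a surface receptor that dampens T cell receptor signalling, and naive cells that bind self ligands more strongly carry more of it. Among CD8 cells, high CD5 is known to go with stronger responses to cytokines such as IL-2 and IL-15.

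The 8 libraries held 75488341 to 87179185 counts each and were of like depth in both groups. Values are given as CPM, counts scaled to a common library total with TMM adjustment, in order of replicate number, and a change is the log2 of CD8 over CD4 with its standard error (SE). A gene is called higher or lower when edgeR's quasi-likelihood test gave an adjusted p under 0.05. The first principal component (59.3% of the variance of the 8 libraries) separated the lineages, and the second (17.7%) set both replicates 1 high and CD8 CD5hi replicate 4 low.

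CD8 CD5hi replicate 4 carried B cell marker RNA. The summed level of 19 B cell markers was 1045.2 CPM there, 35.9 to 54.7 CPM in the other 3 CD8 libraries and 11.7 to 41.4 CPM in the 4 CD4 libraries. Cd74, the MHC class II invariant chain, stood at 4.8, 8.52, 14.8 and 8.24 CPM in the CD4 libraries and 4.73, 11.1, 7.56 and 319 CPM in the CD8 libraries, and the B cell genes Cd79a and Ms4a1 had the same pattern. The same library held Cd4 at 62.2 CPM and Foxp3, the regulatory T cell factor, at 8.31 CPM, against 0.415 to 0.75 and 1.47 to 2.35 CPM in the other CD8 libraries. Of markers of further cell types, Lyz2 (myeloid) was at 10.7 CPM, Csf1r (macrophage) at 1.59, Ncr1 (natural killer) at 0.966 and Siglech (plasmacytoid dendritic cell) at 0.724 CPM there. Each of these 4 was at most 0.242 CPM in every other CD5hi library. For many of the gene lists below, counts without this library are given as well. The T cell genes Cd3d, Cd3e and Cd3g were at 366 CPM or more in all 8 libraries.

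**Figure D1:**
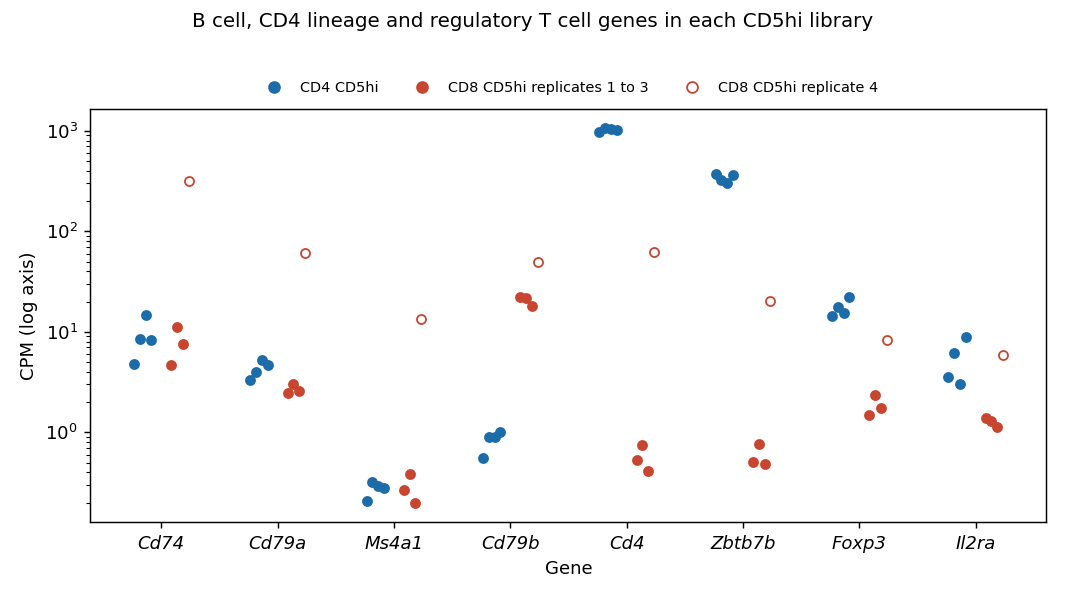
CPM on a log axis for 4 B cell genes (Cd74, Cd79a, Ms4a1, Cd79b) and 4 CD4 lineage or regulatory T cell genes in each CD5hi library, 1 point per library; the open circle is CD8 CD5hi replicate 4. In 7 of the 8 genes that circle stands far from the other 3 CD8 points, at 62.2 CPM for Cd4 and 319 CPM for Cd74, and for Cd79b all CD8 points lie above all CD4 points.

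In these bulk libraries a gene can be higher because more cells express it or because each cell holds more of its RNA, which cannot be told apart. Of 13554 genes tested, 2108 were higher and 2003 lower in CD8 CD5hi cells (15.6% and 14.8%, together 30.3%), and the median log2 change over all tested genes was 0.01. Of these, 849 were at least 2-fold higher (6.26% of tested genes) and 522 at least 2-fold lower (3.85%). Of the called genes, 2077 of the 2108 and 1984 of the 2003 had the same sign in all 4 pairs of equal replicate number. The groups did not overlap in 1754 of the higher and 1742 of the lower genes; over all tested genes, called or not, 14.4% were higher and 14.6% lower without overlap. Without CD8 CD5hi replicate 4, 2155 genes were higher and 2046 lower (15.8% and 15%, together 30.7%), and 3771 of the 4111 calls were shared. With the replicate number as a block, 3177 were higher and 3159 lower (23.4% and 23.3%, together 46.7%), which included 4109 of the 4111. Fitted to the 8 CD5hi libraries alone, 1840 of 13158 tested genes were higher and 1581 lower (together 26%).

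The coreceptor genes and lineage factors differed in the directions of the labels. Cd8a (chr6:71373427-71379173), the coreceptor α chain, was at 0.692, 1.15, 1.65 and 2.07 CPM in CD4 and 1563, 1645, 1634 and 1575 CPM in CD8 cells (log2 10.17 ± 0.55, adjusted p = 1.24e-09). Cd8b1, the β chain, was measured at 7.72, 7.5, 8.34 and 8.42 CPM in CD4 libraries against 1046, 951, 947 and 905 CPM in CD8 libraries (log2 6.91 ± 0.10, adjusted p = 4.66e-17). Every CD8 library lay far above every CD4 library for both. Cd4 (chr6:124864692-124888221) lay at 971, 1066, 1033 and 1024 CPM in the CD4 libraries and 0.536, 0.75, 0.415 and 62.2 CPM in the CD8 libraries. Zbtb7b (chr3:89377644-89394776) stood at 376, 327, 302 and 367 CPM in CD4 and 0.509, 0.773, 0.485 and 20.4 CPM in CD8 cells. Both were lower in all CD8 libraries with no overlap, but replicate 4 lay far above the other 3 CD8 libraries, and leaving it out enlarged both changes. By pair of equal replicate number, the log2 difference of Cd4 was -10.76, -10.43, -11.20 and -4.04. Cd4 gave log2 -6.00 ± 1.51, adjusted p = 0.00633 with it and log2 -10.81 ± 1.31, adjusted p = 1.36e-05 without it. Zbtb7b gave log2 -5.96 ± 1.15, adjusted p = 0.000866 and log2 -9.17 ± 0.93, adjusted p = 2.26e-06.

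Runx3 was higher in CD8 cells by a smaller step, with 67.2, 90.4, 114 and 112 CPM in CD4 libraries against 115, 194, 209 and 203 CPM in CD8 libraries (log2 0.91 ± 0.22, adjusted p = 0.00486). The groups met at the edge, since the lowest CD8 library (replicate 1, 115 CPM) lay just above the highest CD4 library (114 CPM). Gata3, a factor needed for CD4 lineage choice and for type 2 helper cells, was at 60.2, 87.8, 81.6 and 80.1 CPM in the CD4 libraries and 25.6, 40.5, 35.7 and 36 CPM in the CD8 libraries (log2 -1.17 ± 0.15, adjusted p = 2.14e-05). Tox, a thymic factor of CD4 lineage development, was lower by less, with 86.9, 78, 83.6 and 84.4 CPM in CD4 and 63.9, 64.4, 61.2 and 63.9 CPM in CD8 cells (log2 -0.39 ± 0.08, adjusted p = 0.00118). Cd40lg, the helper ligand CD40L, was measured at 92.8, 123, 94.9 and 99.5 CPM in CD4 libraries against 1.42, 2.82, 1.58 and 8.49 CPM in CD8 libraries (log2 -4.84 ± 0.65, adjusted p = 2.92e-05), and again CD8 replicate 4 was the highest of its group. Crtam, a surface molecule of cytotoxic cells, was 3.64-fold higher (12.5 to 15.5 CPM in CD4 and 45.9 to 66.1 CPM in CD8 libraries). Of the 29 genes in the list of coreceptors and lineage factors, 6 were higher and 12 lower in CD8 cells, and 11 did not pass. This is 62.1% called, against 30.3% of all genes. Cd4, Cd8a and Cd8b1 on this list encode the coreceptors by which the groups are named, so their calls belong to the design. This and the other lists were chosen with earlier results of these data known, so such shares only describe the data. The lower members also held Runx1, Bcl11b, Lef1, Tcf7 and Satb1, factors of T cell identity that both lineages express.

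**Figure D2:**
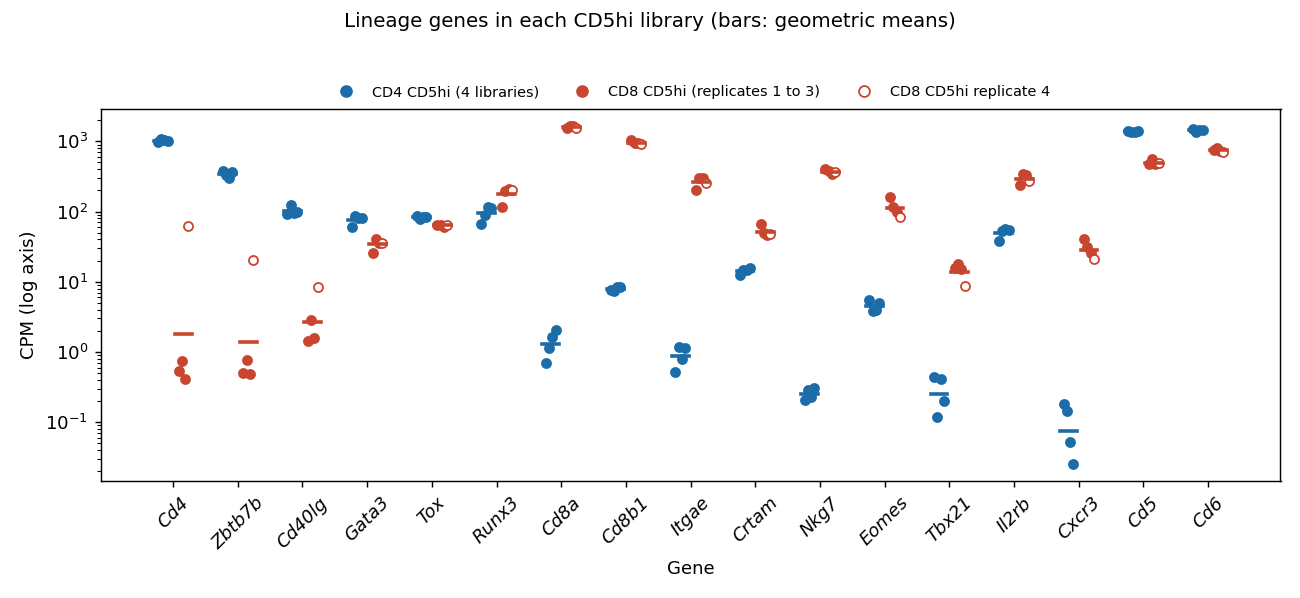
CPM on a log axis for 17 lineage, cytotoxic and signalling genes in the 4 CD4 CD5hi (blue) and 4 CD8 CD5hi (red) libraries; bars are geometric means and the open circle is CD8 CD5hi replicate 4. The groups of Cd8a, Nkg7 and Cxcr3 lie farthest apart, those of Runx3 nearly touch, and the open circles of Cd4, Zbtb7b and Cd40lg lie between the groups.

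Among genes with a mean of at least 5 CPM, the largest excess in CD8 cells belonged to Nkg7, a cytotoxic granule protein, at 0.205, 0.284, 0.231 and 0.302 CPM in the CD4 libraries and 401, 383, 339.7 and 361 CPM in the CD8 libraries (log2 10.49 ± 0.64, adjusted p = 4.72e-09). Plac8, a small cysteine-rich protein, lay at 0.154, 0.284, 0.386 and 0.226 CPM in CD4 and 198, 136, 173 and 101 CPM in CD8 cells (log2 9.17 ± 0.70, adjusted p = 6.43e-08). Itgae, the integrin αE chain (CD103) that binds E-cadherin, stood at 0.526, 1.16, 0.797 and 1.16 CPM in CD4 libraries against 204, 305, 304 and 255 CPM in CD8 libraries (log2 8.19 ± 0.41, adjusted p = 5.83e-10). In all 3, every CD4 library lay near or below 1 CPM. Cxcr3, a chemokine receptor for the interferon-induced ligands CXCL9 and CXCL10, was at 0.18, 0.142, 0.0514 and 0.0251 CPM in the CD4 libraries and 41, 31.1, 25.4 and 21.2 CPM in the CD8 libraries (log2 8.19 ± 0.57, adjusted p = 2.19e-08). Myo1f, a class I myosin of blood cells, gave log2 7.56 ± 0.25, adjusted p = 5.64e-12. Beside these and the 2 coreceptor genes, the 15 largest held Ltk, Kcnc1, Plekhg3, Adgrg5, Samd3, Haao, Ly6c2 and Cxcr6, between log2 6.56 and 7.09. Ly6c2 encodes a form of the surface antigen Ly6C, Cxcr6 the receptor for CXCL16, and Haao an enzyme of tryptophan breakdown.

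On the CD4 side the largest excess after Cd4 and Zbtb7b was in Ptgir, the prostacyclin receptor, at 13.4, 11.5, 9.59 and 11.4 CPM in CD4 and 0, 0.25, 0.277 and 0.483 CPM in CD8 cells (log2 -5.49 ± 0.60, adjusted p = 3.52e-06). St8sia6, a sialyltransferase that adds α2,8-linked sialic acid, was measured at 54.8, 61.7, 56.4 and 50.8 CPM in CD4 libraries against 1.02, 0.682, 0.785 and 2.85 CPM in CD8 libraries (log2 -5.40 ± 0.45, adjusted p = 1.51e-07). Itgb3, the integrin β3 chain, lay at 165, 154, 161 and 176 CPM in the CD4 libraries and 10.8, 11.2, 12 and 22.4 CPM in the CD8 libraries (log2 -3.54 ± 0.23, adjusted p = 8.24e-09). Itga7, an integrin α chain for laminin, gave log2 -3.33 ± 0.19, adjusted p = 1.77e-09, and Cd200r1, an inhibitory receptor for CD200, log2 -3.51 ± 0.26, adjusted p = 4.22e-08. Pdlim4, Myo10, Padi3, Adh1, Adam15, Igsf23 and Fam65c completed the 15, between log2 -4.36 and -3.19. For Pdlim4 and St8sia6 CD8 replicate 4 was the highest CD8 library, at 3.40 and 2.85 CPM.

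Promoter windows from RefSeq (GRCm38.p6, 250 bases before to 50 after each annotated start) are printed for 3 of the largest CD8 genes and for the CD4 lineage factor Zbtb7b, because the factor that divides the lineages, Runx3, belongs to a family that binds the letters TGTGGT. Capitals mark TGTGGT or, where the match lies on the other strand, ACCACA. The windows are Nkg7 at chr7:43436888-43437187 (plus strand), Plac8 at chr5:100572156-100572455 (minus), Cxcr3 at chrX:101734098-101734397 (minus) and Zbtb7b at chr3:89387622-89387921 (minus). For Plac8 and Zbtb7b RefSeq lists a further start, at chr5:100563047-100563346 and chr3:89393329-89393628, whose windows hold no such letters.
Nkg7: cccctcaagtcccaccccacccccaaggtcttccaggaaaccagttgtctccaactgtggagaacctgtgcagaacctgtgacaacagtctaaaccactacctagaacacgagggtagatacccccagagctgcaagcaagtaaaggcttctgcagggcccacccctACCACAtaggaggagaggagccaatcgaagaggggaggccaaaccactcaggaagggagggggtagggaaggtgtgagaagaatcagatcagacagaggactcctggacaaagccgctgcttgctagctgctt
Plac8: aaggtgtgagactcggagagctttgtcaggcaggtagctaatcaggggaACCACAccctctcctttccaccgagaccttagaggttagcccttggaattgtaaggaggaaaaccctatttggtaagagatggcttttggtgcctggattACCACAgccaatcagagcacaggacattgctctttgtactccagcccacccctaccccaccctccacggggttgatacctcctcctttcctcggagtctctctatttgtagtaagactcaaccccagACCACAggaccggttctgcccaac
Cxcr3: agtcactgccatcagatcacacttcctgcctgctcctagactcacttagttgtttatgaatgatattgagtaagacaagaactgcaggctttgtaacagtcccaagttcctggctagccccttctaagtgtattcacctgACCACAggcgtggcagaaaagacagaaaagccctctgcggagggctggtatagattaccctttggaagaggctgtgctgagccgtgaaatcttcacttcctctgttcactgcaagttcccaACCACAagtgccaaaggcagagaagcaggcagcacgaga
Zbtb7b: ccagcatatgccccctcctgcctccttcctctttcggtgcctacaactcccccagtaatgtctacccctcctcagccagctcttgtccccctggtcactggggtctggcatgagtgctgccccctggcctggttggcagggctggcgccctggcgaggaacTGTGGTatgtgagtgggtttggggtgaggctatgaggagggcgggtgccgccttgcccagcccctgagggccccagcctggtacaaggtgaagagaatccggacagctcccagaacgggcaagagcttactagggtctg

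The RUNX letters occurred, on either strand, in 7 of the 12 largest CD8 genes that had a promoter entry (58.3%: Nkg7, Plac8, Cxcr3, Myo1f, Adgrg5, Ly6c2 and Cxcr6). They occurred in 3 of 9 of the largest CD4 genes (33.3%: Zbtb7b, Adam15 and Igsf23), in 15.5% of the 10143 tested genes with an entry and in 16.8% of all promoter windows of that length. The T-box letters AGGTGTGA, read on both strands, were found in 3 of the 12 (Nkg7, Plac8 and Samd3), in 0 of the 9 and in 1.21% of tested genes. Both groups of largest genes were picked by their size of change. Over all called genes the shares lay closer together. Counted per promoter, the RUNX letters were in 15.3% of those of all genes higher in CD8 cells (17.3% for genes higher by 2-fold or more) and in 12.8% of those of lower genes (11.6% for 2-fold or more), against 13.1% of promoters of tested genes. The T-box letters were in 2.3% of promoters of genes higher by 2-fold or more, 1.9% of those lower by as much and 0.999% of promoters of tested genes. Among the largest genes, the GATA letters AGATAA were found in 1 of 12, 1 of 9 and 8.14%, and the TCF/LEF letters CTTTGA in 3 of 12, 2 of 9 and 14.5%. The 4 motifs were searched separately, so 1 stretch of bases could serve more than 1 of them. These are counts of letters in a short window and show no binding. The window of Cd8a held none of the 4.

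Of 26 tested members of the cytotoxic and effector list, 15 were higher in CD8 CD5hi cells and 3 lower (69.2% called, against 30.3% of all genes; median log2 2.28, against 0.01 over all genes), with the same counts without CD8 replicate 4. Prf1, the pore-forming perforin, stood at 11.3, 12.2, 14.3 and 19 CPM in CD4 and 60.2, 54.7, 59.6 and 72.4 CPM in CD8 cells (log2 2.12 ± 0.19, adjusted p = 4.24e-07). Ctsw, a cathepsin of cytotoxic cells, was at 130.4, 103, 134 and 119 CPM in CD4 libraries against 984, 748, 721 and 686 CPM in CD8 libraries (log2 2.69 ± 0.14, adjusted p = 7.38e-10). Cst7, an inhibitor of granule cathepsins, was measured at 6.77, 6.17, 6.13 and 8.56 CPM in the CD4 libraries and 71, 61.8, 53.5 and 67.7 CPM in the CD8 libraries (log2 3.20 ± 0.14, adjusted p = 1.42e-10). These 3 genes were also measurable in every CD4 library. Ifng, the cytokine interferon-γ, was at 0 to 0.0474 CPM in CD4 and 2.69 to 4.63 CPM in CD8 libraries (adjusted p = 6.1e-06). The granzymes were low throughout: Gzmb lay at 0.0769, 0.0711, 0.0514 and 0 CPM in CD4 and 1.1, 0.852, 2.1 and 1.3 CPM in CD8 cells, and Gzma at 0.0503 to 0.333 CPM in CD4 and 1.27 to 2.57 CPM in CD8 libraries. The 3 lower members were Fasl, Prdm1 and Gzmc. Fasl, the death ligand, was 27.1-fold higher in CD4 cells (6.85 to 10.9 CPM in CD4 and 0.0536 to 0.661 CPM in CD8 libraries), and Prdm1, the factor Blimp-1, 6.16-fold higher.

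Of 27 tested genes of memory and cytokine-responsive CD8 cells, 16 were higher and 3 lower (70.4% called; median log2 1.03; 15 and 4 without CD8 replicate 4). Eomes, a T-box factor of memory and cytokine-responsive CD8 cells, stood at 5.46, 3.84, 3.93 and 4.95 CPM in CD4 libraries against 159, 115, 100.1 and 84.7 CPM in CD8 libraries (log2 4.66 ± 0.25, adjusted p = 1.07e-09). Tbx21, encoding the related factor T-bet, was at 0.436, 0.118, 0.411 and 0.201 CPM in the CD4 libraries and 15.7, 17.8, 15 and 8.8 CPM in the CD8 libraries (log2 5.62 ± 0.52, adjusted p = 5.82e-07). For both, CD8 replicate 4 was the lowest of the CD8 libraries and still far above every CD4 library. Il2rb, the β chain shared by the IL-2 and IL-15 receptors, was measured at 37.6, 52.8, 56.8 and 55.3 CPM in CD4 and 241, 339, 330.2 and 271 CPM in CD8 cells (log2 2.54 ± 0.25, adjusted p = 8.99e-07). Il18rap, a subunit of the IL-18 receptor, was 42.6-fold higher, at 0.359 to 1.18 CPM in CD4 and 20.1 to 33.1 CPM in CD8 libraries. Cd44, whose protein the sort required to be low, was nevertheless higher in CD8 cells as RNA, at 4.82, 8.9, 3.46 and 6.22 CPM in CD4 libraries against 19.7, 20.5, 7.61 and 10.7 CPM in CD8 libraries (log2 1.32 ± 0.36, adjusted p = 0.00996), and the groups overlapped because CD8 replicate 3 lay below CD4 replicate 2. Itgb1 and Anxa2, an integrin chain and an annexin of effector and memory cells, were 2.04-fold and 5.27-fold higher. The 3 lower members were Fasl, Ly6a and Smad7; Smad7 overlapped between the groups (log2 -0.57 ± 0.20, adjusted p = 0.0409), and its call was lost when 6 of the 8 CD5hi libraries were left out 1 at a time.

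Killer lectin-like receptors, which natural killer cells and activated CD8 cells use to sense MHC class I and related ligands, gave 10 higher and 0 lower of 14 tested (71.4% called; median log2 3.19; 9 and 0 without CD8 replicate 4). Klrd1, encoding CD94, lay at 6.35, 3.12, 3.28 and 5.16 CPM in the CD4 libraries and 174, 85.3, 86.5 and 59.5 CPM in the CD8 libraries (log2 4.50 ± 0.39, adjusted p = 2.86e-07). Klrk1, encoding NKG2D, stood at 0.0898, 0.118, 0.0257 and 0.176 CPM in CD4 and 4.71, 3.36, 4.9 and 5.63 CPM in CD8 cells (log2 5.48 ± 0.36, adjusted p = 1.31e-08). Klrb1c and Klrb1f were 12.6-fold and 3.65-fold higher but did not exceed 5.57 CPM in any library. The list of natural killer markers, most of which CD8 T cells also express, had 7 of 8 tested members higher (87.5% called). Over all genes this share was 30.3%. The list's summed level was 509 to 630 CPM in CD8 and 17.2 to 25.0 CPM in CD4 libraries. Nkg7 and Ncr1 show how uneven that sum is: Nkg7 alone held 339.7 CPM or more in each CD8 library, whereas Ncr1, which defines natural killer cells, was at 0 in CD8 replicates 1 and 3 and at 0.0227 CPM in replicate 2. Without CD8 replicate 4, 6 of the natural killer markers were higher.

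Receptors for migration differed in both directions. Of 24 chemokine and related receptors tested, 8 were higher and 4 lower (50% called; 7 and 4 without CD8 replicate 4). The list's median log2 was 0.14 with that library and -0.09 without it. Beside Cxcr3 and Cxcr6, Ccr9, the gut and thymus homing receptor for CCL25, was at 9.87, 9.83, 11.3 and 5.99 CPM in CD4 libraries against 217, 162, 202 and 199 CPM in CD8 libraries (log2 4.40 ± 0.21, adjusted p = 3.14e-10). Gpr55, a lipid receptor, was measured at 0.923, 0.509, 0.8997 and 0.553 CPM in the CD4 libraries and 13.6, 15.7, 10.7 and 11.6 CPM in the CD8 libraries (log2 4.16 ± 0.24, adjusted p = 3.41e-09). Xcr1, the receptor for XCL1, was called higher at very low levels (0.0237 to 0.0257 CPM in CD4 and 0.75 to 2.18 CPM in CD8 libraries). The 4 lower members were Ccr8, Gpr183, Ptger4 and S1pr1. Gpr183, an oxysterol receptor that guides cells within lymphoid tissue, was 2.85-fold higher in CD4 cells (104 to 222 CPM in CD4 and 38 to 84.9 CPM in CD8 libraries), and S1pr1, the receptor for lymph node exit, 1.37-fold. Of 32 adhesion and homing genes, 12 were higher and 6 lower (56.2% called; 13 and 7 without CD8 replicate 4). Icam1, the ligand of LFA-1, lay at 19.7, 21.9, 23.8 and 32.1 CPM in CD4 and 69.7, 89.995, 98.3 and 94.1 CPM in CD8 cells (log2 1.85 ± 0.15, adjusted p = 1.06e-07). Cd226, a costimulatory adhesion receptor, stood at 29.99, 25, 22.9 and 25 CPM in CD4 libraries against 160.1, 98.1, 94.2 and 88.2 CPM in CD8 libraries (log2 2.10 ± 0.17, adjusted p = 8.58e-08). CD8 replicate 1 was the highest library for Cd226.

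Of 31 sialyltransferases and glycan enzymes, which build surface glycans, 10 were higher and 10 lower (64.5% called; 9 and 9 without CD8 replicate 4). St3gal2, which sialylates O-linked and glycolipid glycans, was at 28.7, 28.9, 27.7 and 27.5 CPM in the CD4 libraries and 2.78, 2.55, 2.91 and 4.65 CPM in the CD8 libraries (log2 -3.13 ± 0.20, adjusted p = 6.99e-09). St8sia1, the GD3 ganglioside synthase, was measured at 101, 127, 118 and 105 CPM in CD4 and 39.8, 48.3, 51.2 and 46.8 CPM in CD8 cells (log2 -1.27 ± 0.10, adjusted p = 5e-08). Both were lower in CD8 cells in all 4 pairs. Cmah, which makes the sialic acid Neu5Gc, was 1.69-fold higher in CD8 cells (221 to 247 CPM in CD4 and 366 to 428 CPM in CD8 libraries), and Fut7, a fucosyltransferase that completes selectin ligands, 4.28-fold higher at under 3 CPM.

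Of 28 proximal T cell receptor signalling genes, 5 were higher and 9 lower in CD8 cells and 14 did not pass (50% called; 3 and 9 without CD8 replicate 4, 8 and 11 with the replicate block). Tec, a cytoplasmic tyrosine kinase, had the largest excess, at 8.18, 7.48, 8.33 and 7.05 CPM in CD4 libraries against 28.9, 22, 23.4 and 24 CPM in CD8 libraries (log2 1.66 ± 0.11, adjusted p = 7.46e-09). Lax1, an inhibitory membrane adaptor, was 1.5-fold higher (log2 0.58 ± 0.07, adjusted p = 6.04e-06). Cd247, the ζ chain of the receptor, lay at 444, 399, 424 and 426 CPM in the CD4 libraries and 344, 292, 296 and 323 CPM in the CD8 libraries (log2 -0.43 ± 0.07, adjusted p = 0.000101); 56.4% of its exonic bases are shared with Pou2f1, so its reads could be split. Fyb, the adaptor ADAP, was 1.36-fold higher in CD4 cells (log2 -0.44 ± 0.06, adjusted p = 1.51e-05).

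Of 42 negative regulators tested, 8 were higher and 15 lower in CD8 cells (54.8% called; 5 and 15 without CD8 replicate 4). Cd5, whose protein was the sort criterion within each lineage, stood at 1427, 1349, 1368 and 1399 CPM in CD4 and 469, 552, 477 and 493 CPM in CD8 cells (log2 -1.48 ± 0.07, adjusted p = 3.14e-10), a 2.78-fold excess in CD4 cells. By pair its log2 difference was -1.61, -1.29, -1.52 and -1.51. Cd6, a neighbour of Cd5 in the same receptor family, was at 1497, 1350.0, 1462 and 1438 CPM in CD4 libraries against 757, 807, 719 and 709.7 CPM in CD8 libraries (log2 -0.94 ± 0.07, adjusted p = 3.53e-08). The 4 libraries of each group lay close together for both genes and the groups were far apart. Pecam1, an inhibitory adhesion receptor, was also lower in CD8 cells (log2 -0.82 ± 0.07, adjusted p = 1.75e-07). In the other direction Cd160, a receptor for HVEM, was measured at 4.4, 2.91, 2.71 and 4.07 CPM in the CD4 libraries and 69.2, 51.4, 42.5 and 32.3 CPM in the CD8 libraries (log2 3.79 ± 0.24, adjusted p = 5.85e-09). Sla2, an adaptor that lowers receptor levels, was 1.99-fold higher (log2 0.99 ± 0.08, adjusted p = 7.74e-08). Ptpn22, a phosphatase that counters Lck, was 1.71-fold higher (147 to 182 CPM in CD4 and 242 to 334 CPM in CD8 libraries).

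Of 31 early genes induced by T cell receptor signals, 5 were higher and 6 lower in CD8 cells. This is 35.5% called, against 30.3% of all genes (10 and 11 with the replicate block, where 46.7% of all genes were called). Nr4a1, an immediate reporter of receptor signals, lay at 267, 684, 696 and 598 CPM in CD4 and 80.6, 206, 211 and 247 CPM in CD8 cells (log2 -1.59 ± 0.44, adjusted p = 0.0115), with replicate 1 lowest in both groups. Its log2 difference by pair was -1.73, -1.73, -1.72 and -1.28, and the groups did not overlap. Egr1, an early growth response factor, stood at 247, 329, 269 and 220.1 CPM in CD4 libraries against 127, 165, 145 and 187 CPM in CD8 libraries (log2 -0.77 ± 0.19, adjusted p = 0.00487). Junb, an AP-1 subunit, was at 2018, 2789, 2805 and 2914 CPM in the CD4 libraries and 1044, 1256, 1313 and 1698 CPM in the CD8 libraries (log2 -0.99 ± 0.17, adjusted p = 0.000311). Egr2, a later factor of the family of Egr1, did not pass (25.2 to 29.9 CPM in CD4 and 22.5 to 31 CPM in CD8 libraries; log2 -0.02 ± 0.11, adjusted p = 0.899). Ier3 and Spred1, an early response gene and an inhibitor of Ras signalling, were 9.99-fold and 1.75-fold higher in CD8 cells, Ier3 at 0.32 to 1.03 CPM in CD4 and 4.91 to 6.38 CPM in CD8 libraries. Egr1, Jun, Junb and Ier2, 4 of the 6 lower genes, also stand on the list of handling stress genes. Of its 23 members, 3 were higher and 7 lower (43.5% called; 6 and 10 with the replicate block), among them Ppp1r15a (631, 719, 761 and 709.6 CPM in CD4 and 260.1, 401, 429 and 499 CPM in CD8 cells; log2 -0.83 ± 0.16, adjusted p = 0.000854) and Btg2 (log2 -0.47 ± 0.10, adjusted p = 0.00156). The part of handling in these values was not tested.

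NF-κB is a family of dimeric factors kept inactive by IκB proteins until receptor signals release them. Of 36 NF-κB pathway genes tested, 0 were higher and 11 lower in CD8 CD5hi cells, which is 30.6% called, against 30.3% of all genes. The counts were 0 and 12 without CD8 replicate 4. They were 2 and 15 with the replicate block, where 46.7% of all genes were called. Nfkb1, a subunit of the canonical dimer, was measured at 328, 324, 319.6 and 329 CPM in CD4 libraries against 272, 288, 277 and 301 CPM in CD8 libraries (log2 -0.19 ± 0.06, adjusted p = 0.0213), a call that was likewise lost without any of 6 libraries. Its partner Rela lay at 139, 162, 192 and 182 CPM in the CD4 libraries and 104, 149, 161 and 164 CPM in the CD8 libraries (log2 -0.22 ± 0.15, adjusted p = 0.303; adjusted p = 0.0144 with the replicate block). Rel, Relb and Nfkb2 did not pass (log2 0.01, 0.05 and 0.15). Nfkbia, the inhibitor IκBα, stood at 304, 351, 429.9 and 259.8 CPM in CD4 and 198, 336, 340.0 and 265 CPM in CD8 cells (log2 -0.24 ± 0.23, adjusted p = 0.475), and the groups overlapped. The lower members included Nfkbid, an atypical nuclear IκB (127, 175, 133 and 156 CPM in CD4 libraries against 83, 107, 86.9 and 115 CPM in CD8 libraries; log2 -0.59 ± 0.13, adjusted p = 0.00187), Map3k14, the kinase NIK of the non-canonical pathway (146, 169, 183 and 167 CPM in the CD4 libraries and 89.6, 129, 129 and 136 CPM in the CD8 libraries; log2 -0.46 ± 0.12, adjusted p = 0.00729), Traf2 and Tnip2. Of 34 NF-κB target genes, 7 were higher and 11 lower (52.9% called). Tnfrsf4, the costimulatory receptor OX40, was at 26.5, 23.4, 29.7 and 27.9 CPM in CD4 and 6.49, 8.58, 8.79 and 12.8 CPM in CD8 cells (log2 -1.55 ± 0.16, adjusted p = 1.58e-06). Lta, lymphotoxin-α, was 2.05-fold higher in CD4 cells (log2 -1.03 ± 0.11, adjusted p = 4.07e-06).

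Of 18 regulatory T cell genes tested, in populations sorted to lack CD25, 4 were higher and 8 lower in CD8 cells (66.7% called). The median log2 was -0.59, and the counts were 4 and 9 without CD8 replicate 4. The summed level of the list was 496 to 585 CPM in CD4 and 483 to 581 CPM in CD8 libraries. These sums came from different genes: Itgae made up a large part in CD8 libraries, and Izumo1r (221 to 313 CPM) in CD4 libraries. Like sums therefore do not mean like levels of single members. Foxp3 was measured at 14.4, 17.8, 15.4 and 22.1 CPM in CD4 libraries against 1.47, 2.35, 1.77 and 8.31 CPM in CD8 libraries (log2 -2.33 ± 0.48, adjusted p = 0.00142; log2 -3.22 ± 0.35, adjusted p = 5.13e-06 without replicate 4); 12.9% of its exonic bases are shared with Ccdc22. Il2ra, encoding CD25, lay at 3.58, 6.16, 3.01 and 8.95 CPM in the CD4 libraries and 1.38, 1.28, 1.14 and 5.91 CPM in the CD8 libraries and did not pass with all libraries (log2 -1.16 ± 0.56, adjusted p = 0.131), but did without CD8 replicate 4 (log2 -2.10 ± 0.48, adjusted p = 0.00368) and with the replicate block (adjusted p = 0.0315). Izumo1r, the folate receptor FR4 of regulatory and anergic cells, stood at 313, 221, 256 and 258 CPM in CD4 and 79.3, 61.2, 56.3 and 65.7 CPM in CD8 cells (log2 -2.00 ± 0.15, adjusted p = 3.76e-08). Gpr83, a receptor typical of regulatory cells, was 4.13-fold higher in CD4 cells (27.5 to 34.1 CPM in CD4 and 6.14 to 9.26 CPM in CD8 libraries). The 4 higher members were Itgae, Gpr15, Entpd1 and Ikzf2. Ikzf2, the factor Helios, was at 6.64, 10.2, 6.9 and 8.16 CPM in CD4 libraries against 46.1, 48.5, 49.8 and 26.2 CPM in CD8 libraries (log2 2.42 ± 0.32, adjusted p = 2.42e-05), and its relative Ikzf4, Eos, went the other way (log2 -1.39 ± 0.16, adjusted p = 5.83e-06).

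Of the 18 tested genes on the list for anergy and follicular help, 2 were higher and 10 lower in CD8 cells and 6 did not pass (66.7% called, against 30.3% of all genes; median log2 -0.83). Bcl6, the master factor of follicular helper cells, was measured at 38.8, 36.9, 39.3 and 41 CPM in the CD4 libraries and 19.9, 21.2, 22.7 and 28.6 CPM in the CD8 libraries (log2 -0.76 ± 0.12, adjusted p = 0.000181). Cd200 and Il6ra, a ligand that restrains myeloid cells and the IL-6 receptor chain, were 2.16-fold and 2.21-fold higher in CD4 cells. Pdcd1, encoding PD-1, was 1.87-fold higher in CD4 cells at 5.51 to 10.1 CPM in CD4 and 2.86 to 5.18 CPM in CD8 libraries. The 2 higher members were Cxcr5, the B cell follicle homing receptor (2.21 to 3.13 CPM in CD4 and 5.04 to 10.9 CPM in CD8 libraries; log2 1.58 ± 0.36, adjusted p = 0.0029), and Slamf6. Of 19 T helper genes, 5 were higher and 5 lower (52.6% called; 4 and 6 without CD8 replicate 4, 8 and 5 with the replicate block). The list's median log2 turned from 0.40 to -0.05 without that library. Il12rb1, a chain of the IL-12 receptor, lay at 4.62, 5.88, 3.91 and 3.75 CPM in CD4 and 16.1, 21.4, 18 and 15.8 CPM in CD8 cells (log2 1.97 ± 0.15, adjusted p = 5.8e-08).

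Of 33 cytokine receptor genes, 10 were higher and 9 lower (57.6% called; 9 and 10 without CD8 replicate 4). The median log2 was 0.06 with that library and -0.01 without it. The IL-15 receptor chains Il15ra and Il2rg were higher by small steps (log2 0.35 ± 0.10 and log2 0.22 ± 0.06) beside the larger excess of Il2rb, whereas Il7r, the receptor for the survival cytokine IL-7, did not pass (258 to 326 CPM in CD4 and 215 to 315 CPM in CD8 libraries; log2 -0.09 ± 0.13, adjusted p = 0.653). Il1rl2, a receptor for IL-36, was 2.11-fold higher in CD4 cells (12 to 15.2 CPM in CD4 and 5.5 to 7.11 CPM in CD8 libraries). Among 21 STAT and SOCS genes, 3 were higher and 5 lower, 38.1% called against 30.3% of all genes (4 and 5 without CD8 replicate 4). The replicate block, where 46.7% of all genes were called, gave 5 and 7. Stat4, which carries IL-12 signals, stood at 47.5, 49.3, 42.6 and 47.3 CPM in CD4 libraries against 177, 133, 139 and 118 CPM in CD8 libraries (log2 1.60 ± 0.11, adjusted p = 2.71e-08). Cish, an inhibitor induced by STAT5, was at 17.1, 16.3, 22.4 and 18 CPM in the CD4 libraries and 4.46, 5.65, 6.67 and 8.56 CPM in the CD8 libraries (log2 -1.54 ± 0.20, adjusted p = 1.79e-05), and Stat5b itself was 1.4-fold higher in CD4 cells (log2 -0.48 ± 0.07, adjusted p = 8.23e-05). Socs1 and Socs3 were lower in CD8 cells as well (log2 -0.56 ± 0.13 and log2 -0.60 ± 0.14).

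Of 32 costimulatory receptors and ligands, 5 were higher and 13 lower in CD8 cells (56.2% called), Cd40lg leading the lower ones. Tnfrsf25, the death receptor DR3, was measured at 142, 112, 117 and 122 CPM in CD4 and 40.8, 39.6, 40.2 and 41.5 CPM in CD8 cells (log2 -1.60 ± 0.10, adjusted p = 5.65e-09). Tnfsf14, the ligand LIGHT, went the other way at 1.95, 1.21, 0.951 and 1.65 CPM in CD4 libraries against 7.06, 8.32, 5.49 and 5.86 CPM in CD8 libraries (log2 2.21 ± 0.23, adjusted p = 1.88e-06). Tnfrsf18, encoding GITR, was 1.29-fold higher in CD4 cells and overlapped between the groups.

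Of 36 cell cycle genes tested, 32 were higher in CD8 CD5hi cells and 0 lower, with a median log2 of 1.26. This is 88.9% called, against 30.3% of all genes. Mki67, the proliferation antigen, lay at 8.9, 15.9, 9.9 and 6.14 CPM in the CD4 libraries and 63.3, 90.9, 61 and 19.6 CPM in the CD8 libraries (log2 2.52 ± 0.45, adjusted p = 0.000412). Top2a, a topoisomerase of dividing cells, stood at 17.7, 22.4, 18.2 and 13.2 CPM in CD4 and 75, 87.7, 67.8 and 26 CPM in CD8 cells (log2 1.84 ± 0.32, adjusted p = 0.000373). In both genes CD8 replicates 1 to 3 lay at 61.0 CPM or more, and replicate 4 stood between them and the CD4 libraries. Mcm6, a subunit of the replication helicase, was at 72.1, 76.6, 65 and 63.9 CPM in CD4 libraries against 192, 195, 152 and 111 CPM in CD8 libraries (log2 1.22 ± 0.13, adjusted p = 2.65e-06). Ccne1, the cyclin of S phase entry, was measured at 16.7, 13.5, 12.6 and 14.2 CPM in the CD4 libraries and 33, 31.7, 27.2 and 28.9 CPM in the CD8 libraries (log2 1.08 ± 0.11, adjusted p = 1.84e-06). The list's mean log2 CPM was 3.08, 3.08, 2.95 and 2.67 in the CD4 libraries and 4.71, 4.72, 4.39 and 3.49 in the CD8 libraries, so the lowest CD8 value lay above the highest CD4 value. Without CD8 replicate 4, 35 of 36 were higher and the median was 1.45. With the replicate block 35 were higher, against 23.4% of all genes in that fit. The 4 that did not pass without the block, Pcna, Mcm4, Aurka and Ccne2, all overlapped between the groups. Of these, Mcm4, Aurka and Ccne2 passed with the block (edgeR adjusted p = 0.0362, 0.00325 and 0.00503). Pcna, the DNA polymerase clamp, lay at 171, 188, 183 and 146 CPM in CD4 and 195, 178, 179 and 133 CPM in CD8 cells (adjusted p = 0.987). Tubb5 and Tuba1b, tubulins that every cell uses, were 1.65-fold and 1.51-fold higher.

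**Figure D3:**
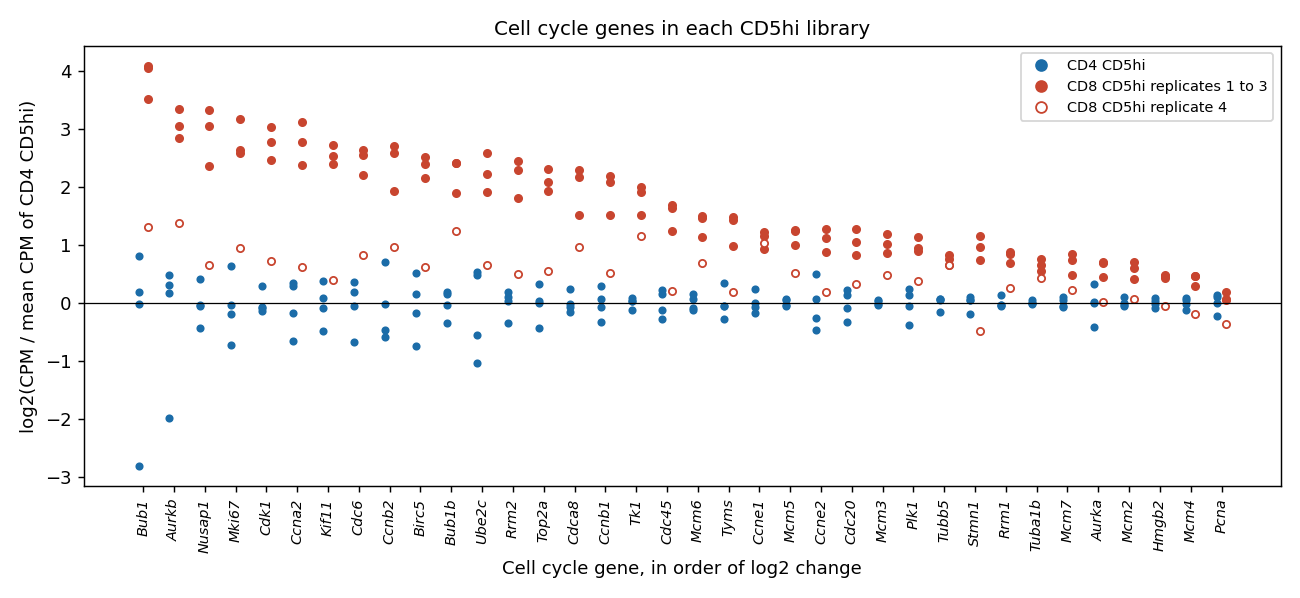
Log2 of each library's CPM over the CD4 CD5hi mean for the 36 cell cycle genes, ordered by log2 change; blue points are CD4 CD5hi, filled red CD8 CD5hi replicates 1 to 3 and open red CD8 CD5hi replicate 4. CD8 replicates 1 to 3 lie above the CD4 points for nearly every gene. Replicate 4 lies lower than they do, except for Ccne1. For Stmn1 (13.6 CPM), Mcm4 and Pcna it lies below every CD4 point.

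Interferon-stimulated genes divided. Of 54 tested, 13 were higher and 8 lower (38.9% called, against 30.3% of all genes). With the replicate block, where 46.7% of all genes were called, 19 were higher and 13 lower. Gbp3 and Gbp2, guanylate-binding proteins induced by interferon-γ, stood at 6.92, 7.71, 8.79 and 6.31 CPM in CD4 libraries against 25.4, 21.1, 22.6 and 19.8 CPM in CD8 libraries (log2 1.58 ± 0.10, adjusted p = 1.14e-08) and at 53.9 to 55.2 CPM in CD4 and 80.01 to 97.5 CPM in CD8 libraries (log2 0.69 ± 0.07, adjusted p = 2.25e-06). Ifit2, a translation inhibitor induced by type I interferon, was at 79.5, 80.05, 75 and 83 CPM in the CD4 libraries and 51.1, 38.1, 43.2 and 37.5 CPM in the CD8 libraries (log2 -0.90 ± 0.10, adjusted p = 2.86e-06), and Slfn5 was 2.21-fold higher in CD4 cells (156 to 219 CPM in CD4 and 66.9 to 108 CPM in CD8 libraries). The guanylate-binding proteins Gbp2, Gbp3, Gbp5, Gbp6, Gbp7 and Gbp9 were all among the higher members. So were Mx1, Oas3, Ifi27, Tgtp1, Tgtp2 and Ly6e. The lower members included Ifit2, Ifi44, Slfn1, Slfn5, Ly6a, Stat2, Irf9 and Samhd1.

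Of 24 MHC class I presentation genes, 8 were higher and 2 lower (41.7% called, against 30.3% of all genes). Without CD8 replicate 4 the counts were 7 and 3. The replicate block, where 46.7% of all genes were called, gave 10 and 4. Nlrc5, the transactivator of MHC class I genes, was measured at 421, 440.5, 408 and 420.4 CPM in CD4 and 612, 632, 636 and 661 CPM in CD8 cells (log2 0.59 ± 0.05, adjusted p = 3.09e-07). Tapbpl, a peptide editor, and Erap1, a peptide-trimming protease, were 1.69-fold and 1.5-fold higher, and B2m, the class I light chain, lay at 1715, 1390.3, 1352 and 1428 CPM in CD4 libraries against 2619, 1733, 1907 and 1878 CPM in CD8 libraries (log2 0.47 ± 0.12, adjusted p = 0.00808). H2-K1 and H2-D1, the class I heavy chains, did not pass (log2 -0.17 ± 0.07, adjusted p = 0.0748 and log2 -0.10 ± 0.07, adjusted p = 0.336). Of 18 BCL2 family genes, 4 were higher and 3 lower (38.9% called, against 30.3% of all genes). The higher members were Pmaip1, Bmf, Bid and Bak1. The 3 lower members were Bcl2l14, Bcl2a1d and Mcl1, of which Bcl2l14 had the largest change. Bid stood at 23.2, 20.7, 20.9 and 20.8 CPM in the CD4 libraries and 46.3, 41.1, 39.5 and 42.2 CPM in the CD8 libraries (log2 0.98 ± 0.08, adjusted p = 1e-07), and Bmf at 2.25 to 5.22 CPM in CD4 and 5.85 to 10.05 CPM in CD8 libraries (log2 1.12 ± 0.24, adjusted p = 0.00223). Mcl1, a survival protein, was at 577, 636, 587 and 574 CPM in CD4 and 488, 424, 441 and 424 CPM in CD8 cells (log2 -0.42 ± 0.06, adjusted p = 9.34e-05). Bcl2 did not pass (log2 -0.07 ± 0.11, adjusted p = 0.66). Bid and Bak1 share 17.7% and 25.5% of exonic bases with a neighbouring tested gene.

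Of 27 naive-state and E protein factors, 3 were higher and 10 lower (48.1% called, against 30.3% of all genes). The replicate block, where 46.7% of all genes were called, gave 6 and 15. Tcf7, the naive and memory T cell factor TCF1, was measured at 1862, 2026, 2118 and 2169 CPM in CD4 libraries against 1180.4, 1414, 1421 and 1521 CPM in CD8 libraries (log2 -0.56 ± 0.09, adjusted p = 0.000122). Lef1, its partner, lay at 479, 534, 599.6 and 583 CPM in the CD4 libraries and 314, 391, 393 and 380.0 CPM in the CD8 libraries (log2 -0.57 ± 0.12, adjusted p = 0.00188). Ets1, a factor of T cell quiescence and survival, was 1.5-fold higher in CD4 cells (log2 -0.58 ± 0.07, adjusted p = 7.44e-06), and Satb1, a chromatin organiser, 1.41-fold (log2 -0.50 ± 0.08, adjusted p = 0.000173). Ikzf3, the factor Aiolos, was 1.98-fold higher in CD8 cells (log2 0.98 ± 0.12, adjusted p = 7.7e-06). Klf2, which keeps naive cells circulating, did not pass (477 to 1027 CPM in CD4 and 561 to 1163 CPM in CD8 libraries; log2 0.19 ± 0.26, adjusted p = 0.622). Thymocyte genes gave 7 higher and 7 lower of 18 (77.8% called). Slc6a19, an amino acid transporter, was higher in CD8 cells at 0 to 0.0711 CPM in CD4 and 2.22 to 5.32 CPM in CD8 libraries (adjusted p = 4.98e-08). Plxnd1, a semaphorin receptor of developing thymocytes, was 4.88-fold higher in CD4 cells (log2 -2.29 ± 0.22, adjusted p = 1.01e-06).

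Metabolic genes were also mixed. Of 24 glycolytic enzymes and transporters, 7 were higher and 8 lower (62.5% called). Ldhb, a lactate dehydrogenase subunit, stood at 33.4, 35.3, 35.4 and 27.2 CPM in CD4 and 14.2, 15.5, 13.1 and 11.2 CPM in CD8 cells (log2 -1.28 ± 0.13, adjusted p = 1.89e-06), Pfkfb4 was 2.56-fold and Pfkm 1.66-fold higher in CD4 cells. Pgam1 was 1.55-fold higher in CD8 cells (log2 0.63 ± 0.07, adjusted p = 8.11e-06), and Hk2, a hexokinase of activated cells, 9.9-fold higher (0.692 to 1.41 CPM in CD4 and 6.57 to 13.4 CPM in CD8 libraries). Of 29 fatty acid and sterol synthesis genes, 3 were higher and 9 lower (41.4% called, against 30.3% of all genes). The replicate block, where 46.7% of all genes were called, gave 7 and 13. The sterol enzymes Mvk and Cyp51 were 1.49-fold and 1.57-fold higher in CD4 cells. Acaca, which makes malonyl-CoA for fatty acids, was 1.66-fold higher in CD8 cells (log2 0.73 ± 0.12, adjusted p = 0.000213). Of 78 cytosolic ribosomal protein genes, 15 were higher and 2 lower. This is 21.8% called, under the 30.3% of all genes (median log2 0.15). The counts were 13 and 1 without CD8 replicate 4. They were 33 and 3 with the replicate block, where 46.7% of all genes were called. Rpl4 was at 2875, 2924, 3246 and 2939.6 CPM in CD4 libraries against 3983, 3742, 3697 and 3637 CPM in CD8 libraries (log2 0.33 ± 0.06, adjusted p = 0.000473), a difference of 1.26-fold. At low CD5, 0 were higher in CD8 cells and 5 lower. The test of the difference between high and low CD5 passed for 0 of the 78 genes, also without CD8 replicate 4, and for 3 with the replicate block.

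**Figure D4:**
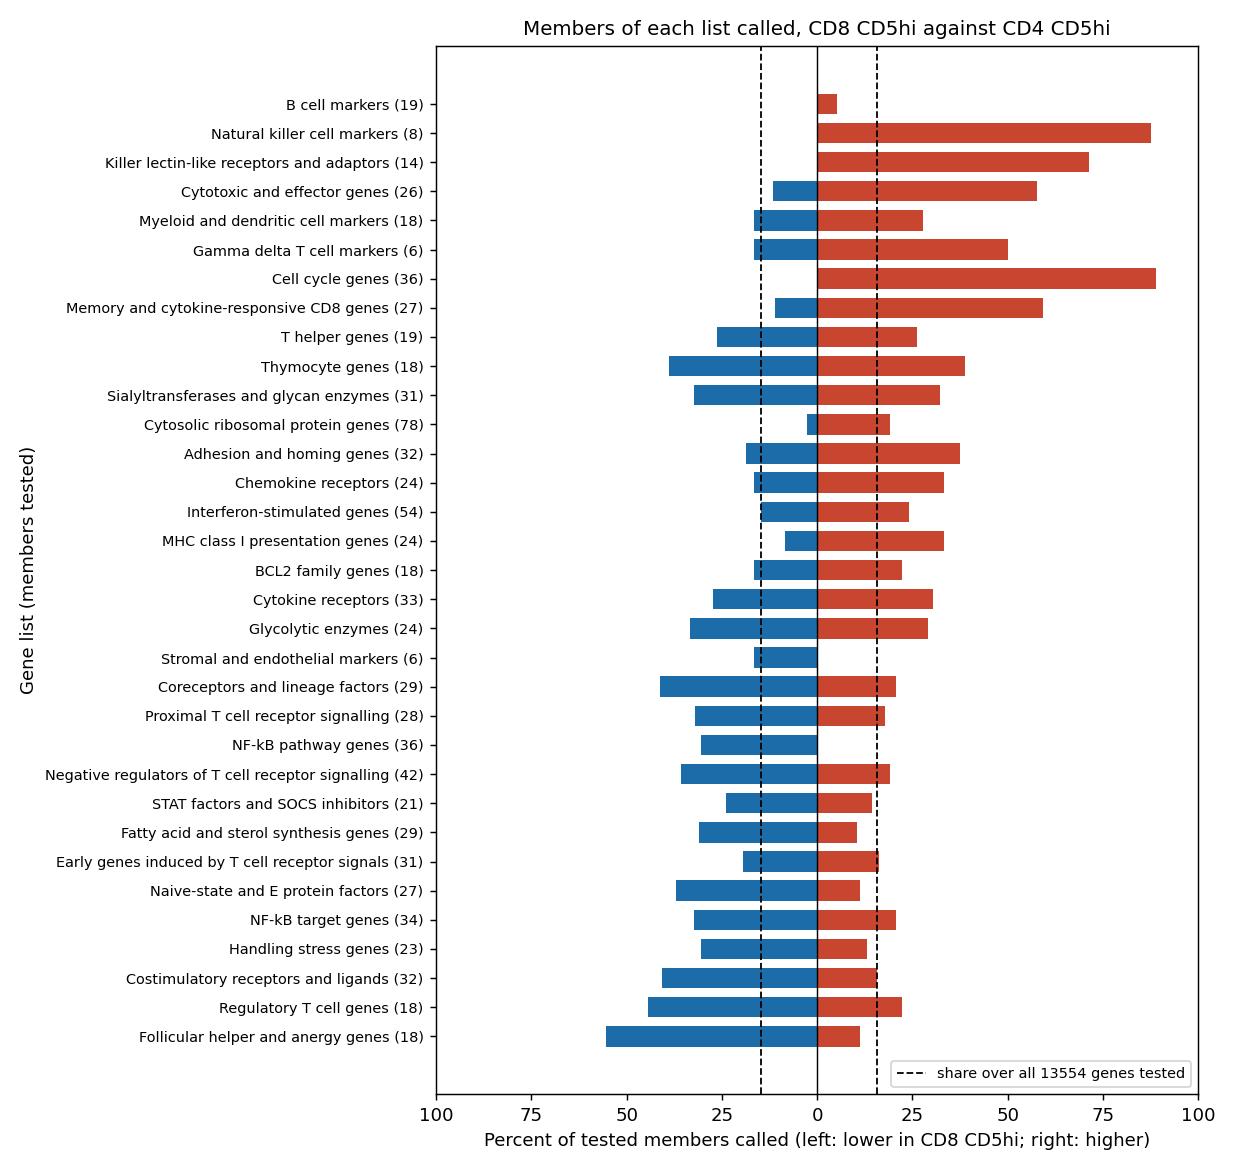
Percent of tested members called higher (right, red) and lower (left, blue) in CD8 CD5hi cells for 33 gene lists, ordered by median log2 change; dashed lines mark the share over all 13554 genes tested, 15.6% higher and 14.8% lower. Cell cycle genes have the largest share on the right, and the NF-κB pathway and stromal lists have a bar only on the left.

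Markers of other cell types gave a few calls beside those above. Of the 19 B cell markers 1 was called, Cd79b, the Igβ signalling chain, at 0.551, 0.9003, 0.8997 and 1.01 CPM in the CD4 libraries and 22.5, 21.6, 18.2 and 49.4 CPM in the CD8 libraries (log2 5.05 ± 0.69, adjusted p = 3.65e-05; log2 4.62 ± 0.67, adjusted p = 7.56e-05 without replicate 4). Unlike the other markers named, Cd79b was 18.2 CPM or more in every CD8 library and at most 1.01 CPM in every CD4 library. The 1 call is 5.26% of the list, under the 30.3% of all genes. With the replicate block 5 B cell markers were called higher. The list's median was 3.80 with CD8 replicate 4 and 0.10 without it. Of 18 myeloid and dendritic markers, 5 were higher and 3 lower (44.4% called, and 2 and 3 without replicate 4). Their median was 1.86 with replicate 4 and 0.15 without it. The summed level over the 21 markers in the table was 234 to 292 CPM in CD8 and 252 to 290 CPM in CD4 libraries. Itgam, an integrin chain of myeloid cells that some T cells express, was lower in CD8 cells (5.95 to 7.64 CPM in CD4 and 1.06 to 2.85 CPM in CD8 libraries; log2 -1.72 ± 0.23, adjusted p = 2.32e-05). Of 6 γδ T cell markers tested, 3 were higher and 1 lower (66.7% called, and 2 and 1 without replicate 4). Their summed level was 39.4 to 79.2 CPM in CD8 and 6.92 to 13.6 CPM in CD4 libraries. Cd163l1, a scavenger receptor of γδ cells, was measured at 2.8, 4.42, 4.83 and 2.15 CPM in CD4 and 10.5, 13.2, 18.8 and 6.81 CPM in CD8 cells (log2 1.79 ± 0.50, adjusted p = 0.0115). 5830411N06Rik, its relative, lay at 1.78, 3.15, 3.26 and 1.01 CPM in CD4 libraries against 30.5, 41.6, 57.9 and 15.2 CPM in CD8 libraries (log2 3.98 ± 0.66, adjusted p = 0.000218). In both genes replicate 3 was the highest and replicate 4 the lowest library of its lineage in CD4 and in CD8 cells alike. The part of such cells in the results above was not tested.

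The same lineage difference was measured at low CD5, in 8 other libraries. Both comparisons came from the same fit and share its estimate of the spread. There 1359 genes were higher and 1279 lower in CD8 cells (10% and 9.44%, together 19.5%). Of the 2108 genes higher at high CD5, 1151 (54.6%, and 84.7% of those higher at low CD5) were also called higher at low CD5 and 2 were called lower. Of the 2003 lower genes, 1084 (54.1%, and 84.8%) were also called lower and 4 higher. By sign alone, 95.9% of the higher and 98% of the lower genes went the same way.

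**Figure D5:**
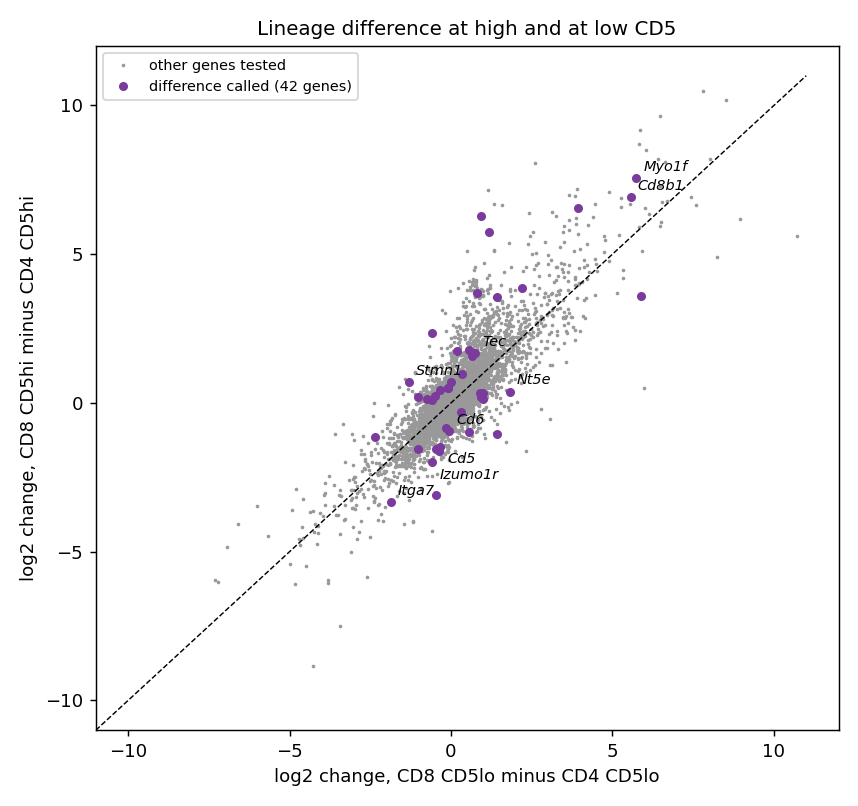
Log2 change of CD8 against CD4 at low CD5 (x axis) and at high CD5 (y axis) for the 13554 tested genes, 1 point per gene; purple points are the 42 genes whose 2 changes differed by edgeR's test and the dashed line marks equal change. Most genes with a large change lie near the line, Myo1f and Cd8b1 lie above it, and Cd5, Cd6, Izumo1r and Itga7 lie below it.

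A test of the difference itself called 42 genes (0.31%), 24 with a more positive change at high CD5 (0.177%) and 18 with a more negative one (0.133%). Both counts depended on which libraries were in the fit. In the absence of CD8 CD5hi replicate 4 they were 107 and 58 (0.783% and 0.425%, together 1.21%), without CD8 CD5lo replicate 2 they were 1 and 7, and with the replicate block 205 and 174 (1.51% and 1.28%, together 2.8%). Cd5 is 1 of the 18: its change was log2 -0.35 ± 0.07, adjusted p = 0.00166 at low CD5 and log2 -1.48 ± 0.07, adjusted p = 3.14e-10 at high CD5, a difference of log2 -1.13 ± 0.10, adjusted p = 3.1e-05. Cd5 RNA stood at 255 ± 19.5 CPM in CD4 CD5lo and 200.4 ± 12.3 CPM in CD8 CD5lo libraries and at 1386 ± 34.4 CPM in the CD4 and 498 ± 37.8 CPM in the CD8 libraries of high CD5 (mean ± SD, n = 4). The sort separated cells by CD5 protein within each lineage, so a gap between CD5hi and CD5lo in Cd5 RNA belongs to the design, and its unequal size between the lineages is what this test measured. For Cd6, CD8 and CD4 cells did not differ beyond the threshold at low CD5 (log2 -0.07 ± 0.07, adjusted p = 0.593; difference log2 -0.87 ± 0.10, adjusted p = 0.000388). Izumo1r differed by log2 -1.42 ± 0.20, adjusted p = 0.00662, Tnfrsf4 by log2 -1.10 ± 0.22, adjusted p = 0.0454 and Itga7 by log2 -1.46 ± 0.24, adjusted p = 0.0196, in each case with a larger CD4 excess at high CD5. Nt5e, the surface enzyme CD73, was higher in CD8 cells at low CD5 (log2 1.81 ± 0.17, adjusted p = 6.52e-07) and not called at high CD5 (log2 0.38 ± 0.16, adjusted p = 0.0844; adjusted p = 0.0132 with the replicate block), a difference of log2 -1.43 ± 0.23, adjusted p = 0.0172.

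Among the 24, Cd8b1 differed by log2 1.35 ± 0.11, adjusted p = 1.6e-05, Myo1f by log2 1.81 ± 0.29, adjusted p = 0.0172, Car2, a carbonic anhydrase, by log2 1.20 ± 0.24, adjusted p = 0.0423, and Tec by log2 0.93 ± 0.14, adjusted p = 0.016. In CD8 cells Cd8b1 lay at 1200 to 1462 CPM at low CD5 and 905 to 1046 CPM at high CD5. In CD4 cells it lay at 25.5 to 30.3 CPM at low CD5 and 7.5 to 8.42 CPM at high CD5. Cd8b1 was thus lower at high CD5 in both lineages, by a larger factor in CD4 cells. Stmn1, a microtubule regulator of dividing cells, was lower in CD8 cells at low CD5 (log2 -1.31 ± 0.26, adjusted p = 0.00178) and higher at high CD5 (log2 0.71 ± 0.26, adjusted p = 0.0471), a difference of log2 2.01 ± 0.37, adjusted p = 0.0278. Its libraries were 19.5, 19.6, 16.6 and 20.3 CPM in the CD4 libraries and 37, 42, 31.4 and 13.6 CPM in the CD8 libraries, and CD8 replicate 4 lay below the whole CD4 group. The call at high CD5 was lost when 7 of the 8 libraries were left out 1 at a time, and kept without CD8 replicate 4 (log2 0.96 ± 0.17, adjusted p = 0.000496). Sestd1 was lower in CD8 cells at both levels of CD5 and by less at high CD5 (difference log2 1.21 ± 0.21, adjusted p = 0.0229). Trps1 was lower at low CD5 (log2 -1.01 ± 0.16, adjusted p = 0.000247) and not called at high CD5 (log2 0.20 ± 0.16, adjusted p = 0.393; difference log2 1.21 ± 0.23, adjusted p = 0.0391).

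The cell cycle list had 5 members higher and 2 lower in CD8 cells at low CD5, with a median log2 of 0.49, against 32, 0 and 1.26 at high CD5. The median of its differences between high and low CD5 was 1.13. Single members passed the test of that difference in 1 of 36 cases with all libraries, in 20 without CD8 CD5hi replicate 4 and in 19 with the replicate block. Of the T-box factors, Tbx21 gave a difference of log2 3.16 ± 0.66, adjusted p = 0.0549 and Eomes one of log2 0.17 ± 0.31, adjusted p = 0.996, and neither passed. Eomes was already higher in CD8 cells at low CD5 (log2 4.48 ± 0.25, adjusted p = 2.5e-09).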

How the data were processed

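RNA-seq of 16 libraries (4 sorted groups, 4 replicates each) was deposited as 1 table of whole-number read counts per gene symbol. The authors' tools, per the submitters' processing notes, were the aligner STAR 2.5.2a, the read counter featureCounts 1.4.6-p3 and DESeq2, on mm10. The sources used here give no strand setting and do not say which of the 2 kits named in the labels' protocols each sample had. Low counts were mostly even (74.2% to 80.5% of counts from 1 to 9 in the CD5hi libraries, against 50.3% to 51.3% of the largest counts), so 1 fragment may count as 2; counts halved were tried as an alternative. Replicates of a group differed by more than counting noise (chi-square per degree of freedom 32.6 to 215).

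Of 24421 genes, 13554 passed edgeR's filterByExpr (minimum count 10, minimum total 15). The edgeR quasi-likelihood test (R 4.3.3, edgeR 4.0.16, limma 3.58.1) was fitted to all 16 libraries with TMM scaling and 1 term per group (12 residual degrees of freedom), and p-values were adjusted by Benjamini-Hochberg over all tested genes at 0.05. The SE is the log2 change over the square root of F. Deviations from the group means correlated between libraries of equal replicate number (r = 0.538, 0.24, 0.335 and 0.235 over 13554 genes). Libraries of equal number thus shared part of their variation. This comes from the data, since the labels name no shared animal or day. The fit with 1 term per group takes the libraries as unpaired, and so do its SE and calls. The replicate block was therefore fitted too. On simulated counts with known changes the test recovered 40.3% of 1.5-fold, 67.2% of 2-fold and 92.4% of 4-fold changed genes in this comparison and called 6 of 13354 unchanged ones. The simulation changed only 67, 67 and 66 genes, a far smaller share than the 30.3% called in the data. Its cutoff after adjustment was therefore stricter, and these rates need not hold for the data.

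Named genes were the 15 largest called changes each way (at least 5 CPM on average, no overlap, same sign in 4 pairs, called also without CD8 CD5hi replicate 4), up to 4 members per gene list with the smallest adjusted p, 6 genes each way for the difference between high and low CD5, and fixed lineage, NF-κB and B cell genes; predicted genes and receptor segments were left out of rankings. The members, the 34 lists and the rule were chosen with earlier results of these data known. Outside the rule, Mki67, Top2a, Pcna, Mcm4, Aurka, Ccne2, Nr4a1, Egr2, Tcf7, Lef1, Il7r, Klf2, Bcl2, B2m, H2-K1, H2-D1, Il15ra, Il2rg, Socs1, Socs3, Gzma, Gzmb, Fut7, Hk2, Ptpn22, Gpr183, S1pr1, Pdcd1, Cxcr5, Fasl, Prdm1, Smad7, Tnfrsf18 and the members listed by name beside a count were picked with their values in view. Some members of the lists enter the counts and are not reported here by name. The annotation of gene positions was GENCODE vM21 on GRCm38.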

Additional observations from a re-analysis of the deposited data

Results flagged for a closer look

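In 294 groups of 4 libraries (147 named genes in the 2 CD5hi groups), the extreme library's gap to its neighbour was set against the group's range by Dixon's test, which chance passes in about 1 group in 20. It passed in 24 groups. In 14 of them CD8 CD5hi replicate 4 stood above or below the other 3 CD8 libraries: Cd74 at 319 CPM, Cd4 at 62.2, Cd79a at 61.3, Cd79b at 49.4, Ikzf2 at 26.2 (below the others), Itgb3 at 22.4, Zbtb7b at 20.4, Ms4a1 at 13.5, Ltk at 9.95 (below the others), Foxp3 at 8.31, Il2ra at 5.91, Pdlim4 at 3.40, St8sia6 at 2.85 and Adh1 at 2.503 CPM. In the same library the 19 B cell markers summed to 1045.2 CPM; the part of other cells in these values was not tested.

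CD8 CD5hi replicate 1 stood apart for Rpl6 at 1578 CPM, Rpl23a at 1485, Cd226 at 160.1, Runx3 at 115, Map3k14 at 89.6 and Pfkm at 23.03 CPM. CD4 CD5hi replicate 1 did so for Junb at 2018, Tubb5 at 569 and Bid at 23.2 CPM, and CD4 CD5hi replicate 3 for Trps1 at 5.65 CPM. Some of these gaps were small in CPM. Pfkm was at 23.99 to 24.14 CPM in the other CD8 CD5hi libraries, and Bid at 20.74 to 20.89 CPM in the other CD4 CD5hi libraries.

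The change of CD8 against CD4 differed between high and low CD5, by edgeR's test of the difference, for 13 named genes. The log2 difference was 2.01 for Stmn1, 1.81 for Myo1f, 1.35 for Cd8b1, 1.21 for Sestd1, 1.21 for Trps1, 1.20 for Car2, 0.93 for Tec, -0.87 for Cd6, -1.10 for Tnfrsf4, -1.13 for Cd5, -1.42 for Izumo1r, -1.43 for Nt5e and -1.46 for Itga7.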

How the results depend on the processing

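With the replicate block 3177 genes were higher and 3159 lower at high CD5, 2132 and 2213 at low CD5, and 205 and 174 differed between the levels; without CD8 CD5hi replicate 4 the block gave 3039 lower genes at high CD5. The block brought Rela, Nt5e and Il2ra past the threshold and changed no other call among the 151 genes named by the rule. Genes named outside the rule, such as Mcm4, Aurka and Ccne2, are not among these. The count of genes differing between the levels was 85 and 44 with CD8 CD5hi replicate 4 and both CD5lo replicates 3, the 3 libraries with most B cell marker RNA, left out and 128 and 87 with DESeq2's Wald test (cause not tested). Leaving out 1 library at a time gave 1851 to 2155 higher and 1562 to 2046 lower genes at high CD5, 1133 to 1265 and 979 to 1251 at low CD5, and 1 to 107 and 7 to 58 for the difference. Cd79a reversed to log2 -0.66 (edgeR adjusted p = 0.0145) without the 3 libraries and to -0.67 (adjusted p = 0.0295) in the fit of CD5hi libraries alone without CD8 CD5hi replicate 4, which was added after the data were seen; the cause was not tested. Other counts at high CD5, under DESeq2 size factors, DESeq2's Wald test, limma voom, no filter on low counts and halved counts, stayed within 1.5 times those reported. In the simulated data, where far fewer genes were changed than are called here, 1.5-fold changes were recovered in 40.3% of genes. Small changes may be missed at this number of libraries, but the simulation does not give their share in these data.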
